A study of Mus musculus with 24 samples.

Results

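Lymph node B cells of PU.1 cKO mice were compared with those of control mice after 48 h of culture with CD40L + IL-4, in 4 of the 24 RNA-seq libraries of the series. The 12721 genes with at least 0.5 CPM (a count relative to sequencing depth) in at least 2 of the 8 libraries of this culture were tested, of 27179 genes counted. Control mice carried the Cd23-Cre transgene alone (Cd23T/+) and PU.1 cKO mice carried it with a floxed Spi1 gene on both alleles (Spi1fl/fl Cd23T/+), so both groups expressed Cre. All animals were labelled C57BL/6, and their ages are not in the labels. SpiB KO (Spi1fl/fl Cd23+/+ Spib-/-, floxed but without Cre) libraries, and those of PU.1 SpiB DKO (the PU.1 cKO genotype with Spib-/- added), of the same culture also entered the fit. They served to estimate the spread between replicates and counted in the thresholds on expression. Values of these genotypes are given beside some results. Naive and LPS + IL-4 libraries of the control and PU.1 cKO genotypes served for the comparison between stages.

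Each group had 2 libraries, which the study describes as biological replicates. Cre in this transgene follows regulatory sequences of Cd23 and is active from late in B cell maturation, so earlier B cell development had run with PU.1 intact. Cells were sorted as CD3- B220+ CD138-, which removes cells that already display the plasma cell protein CD138. In RNA from a mixed population, fewer cells of a type and less RNA per cell cannot be told apart.

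PU.1 is an ETS family transcription factor that binds purine-rich DNA with a GGAA core, and SpiB is its close relative in B cells with a like DNA-binding domain. In mature B cells both are known to sustain genes of antigen receptor signalling. Binding of CD40 by CD40L, together with IL-4, mimics help from T cells: it drives B cells to divide, to switch immunoglobulin class and, after further divisions, to become antibody-secreting plasma cells under the repressor Blimp-1.

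The promoters of 4 of the genes reported are shown first, chosen because a purine-rich ETS sequence lies in each. They do not show how common it is, and the shares over all genes are given below. Rasgrp3, Pik3ap1 and Cd72 act at the B cell receptor (BCR) and were lower in PU.1 cKO, and Prdm1, the gene of Blimp-1, was higher. The 250 bases before a RefSeq transcription start (GRCm38.p6) are written 5′ to 3′ along the gene, with the letters GAGGAAG, or CTTCCTC for the other strand, in capitals. They lie at chr17:75435655-75435904 (plus strand) for Rasgrp3, chr19:41385103-41385352 (minus strand) for Pik3ap1, chr4:43454627-43454876 (minus strand) for Cd72 and chr10:44458749-44458998 (minus strand) for Prdm1.
Rasgrp3: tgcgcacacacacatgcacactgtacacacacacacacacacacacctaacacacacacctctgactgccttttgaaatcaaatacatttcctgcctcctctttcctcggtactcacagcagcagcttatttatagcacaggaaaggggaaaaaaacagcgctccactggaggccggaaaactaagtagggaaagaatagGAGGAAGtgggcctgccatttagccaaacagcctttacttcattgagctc
Pik3ap1: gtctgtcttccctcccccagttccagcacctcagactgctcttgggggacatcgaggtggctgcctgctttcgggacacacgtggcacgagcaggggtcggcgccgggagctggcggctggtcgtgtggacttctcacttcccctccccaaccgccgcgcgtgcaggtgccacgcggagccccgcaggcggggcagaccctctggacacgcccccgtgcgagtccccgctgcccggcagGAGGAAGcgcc
Cd72: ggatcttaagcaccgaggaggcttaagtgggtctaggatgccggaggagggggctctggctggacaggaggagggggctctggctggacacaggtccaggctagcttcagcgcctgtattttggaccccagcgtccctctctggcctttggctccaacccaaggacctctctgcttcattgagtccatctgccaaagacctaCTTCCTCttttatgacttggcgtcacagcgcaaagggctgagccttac
Prdm1: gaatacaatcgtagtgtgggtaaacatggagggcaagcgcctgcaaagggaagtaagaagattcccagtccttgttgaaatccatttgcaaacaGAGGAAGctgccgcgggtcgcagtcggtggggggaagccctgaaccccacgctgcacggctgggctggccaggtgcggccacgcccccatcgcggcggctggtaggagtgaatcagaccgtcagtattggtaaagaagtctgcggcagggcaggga
The capitals begin 50 bases before the start in Rasgrp3, 11 bases in Pik3ap1, 48 bases in Cd72 and 156 bases in Prdm1. Rasgrp3 has a further RefSeq start whose window lacks these letters.

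The control libraries held 11334956 and 9598674 counts on genes, and the PU.1 cKO libraries 9828967 and 61640683. The second PU.1 cKO library was thus 6.15 times as deep as the median of the other 7 libraries of this culture (10022091). Ribosomal Rn45s took between 0.592% and 1.86% of the counts of the 4 libraries. Replicates correlated across genes in log2 CPM at 0.982 in control and 0.986 in PU.1 cKO. In the marker check, 9 of 9 B cell markers were expressed, with summed levels of 6634 and 8167 CPM in control and 6204 and 5489 CPM in PU.1 cKO. The T cell genes Cd3d, Cd3e, Cd3g and Cd4 did not exceed 0.353 CPM in any library. The 16 T cell markers together summed to 77.4 and 79.2 CPM in control and to 170 and 163 CPM in PU.1 cKO, mostly Thy1, Zap70 and Cd28. Thy1 was at 49.8 and 56.8 CPM in control and at 64.3 and 65.5 CPM in PU.1 cKO. Csf1r, Lyz2, C1qa, C1qb and C1qc of macrophages and S100a8 and S100a9 of neutrophils had 0 counts in all 4 libraries, where 3 counts, the limit set by a count of 0, correspond to 0.0487 to 0.313 CPM.

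Before any result, 1 property of the PU.1 cKO libraries has to be given. H2-Ea-ps (Entrez ID 100504404, chr17:34341952-34344645), the H2-Ea gene of MHC class II, is known to be silent in C57BL/6 mice and other strains of the H2-b haplotype. Its level was 1102 to 2727 raw CPM (scaled to library totals only) in the 6 PU.1 cKO libraries of the 3 stages and 0 to 3.46 raw CPM in the other 18 libraries. The PU.1 SpiB DKO libraries, which carry the same floxed Spi1 alleles and the same Cre, were among the 18. In the CD40L + IL-4 culture the control libraries held 2 and 0 counts of this gene and the PU.1 cKO libraries 184715 in all, a ratio of 27052 after scaling to depth (exact binomial 95% interval 7489 to 223377, counting error only).

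Across the series, 20 genes were higher in all 6 PU.1 cKO libraries than in all other 18, and 4 were lower (Emr1, Ighg3, Csf2rb and Asah1). For Csf2rb the highest PU.1 cKO library was at 8.16 and the lowest other at 8.75 raw CPM, and for Emr1 these were 3.34 and 3.94 raw CPM. Emr1 also had a log2 fold change of -2.95 in PU.1 SpiB DKO of this culture, against the same controls. Those of Csf2rb, Asah1 and Ighg3 there were -0.58, -0.25 and 0.94, against -3.19, -0.96 and -3.79 in PU.1 cKO. Of the 20, 13 lie in the H2 region of chromosome 17, between 33938909 and 37483554 (3.54 Mb). They include H2-Q10, with 71.1 to 179 raw CPM against 0.437 to 4.31 raw CPM, and H2-K2, with 76.0 to 204 raw CPM against 2.19 to 7.31 raw CPM. Glo1, also on chromosome 17 (30592861 to 30612659), stood at 49.4 to 75.6 raw CPM against 21.8 to 39.2 raw CPM. Of the other genes apart, Rps15a-ps8 on chromosome 4 stood at 26.6 to 67.3 raw CPM against 0.203 to 1.43 raw CPM. An allele or genetic background of these mice and the loss of PU.1 alone cannot be told apart for such genes, since all 6 libraries share both. H2-Q and H2-T genes are near-identical copies, so the reads of each are uncertain.

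**Figure D1:**
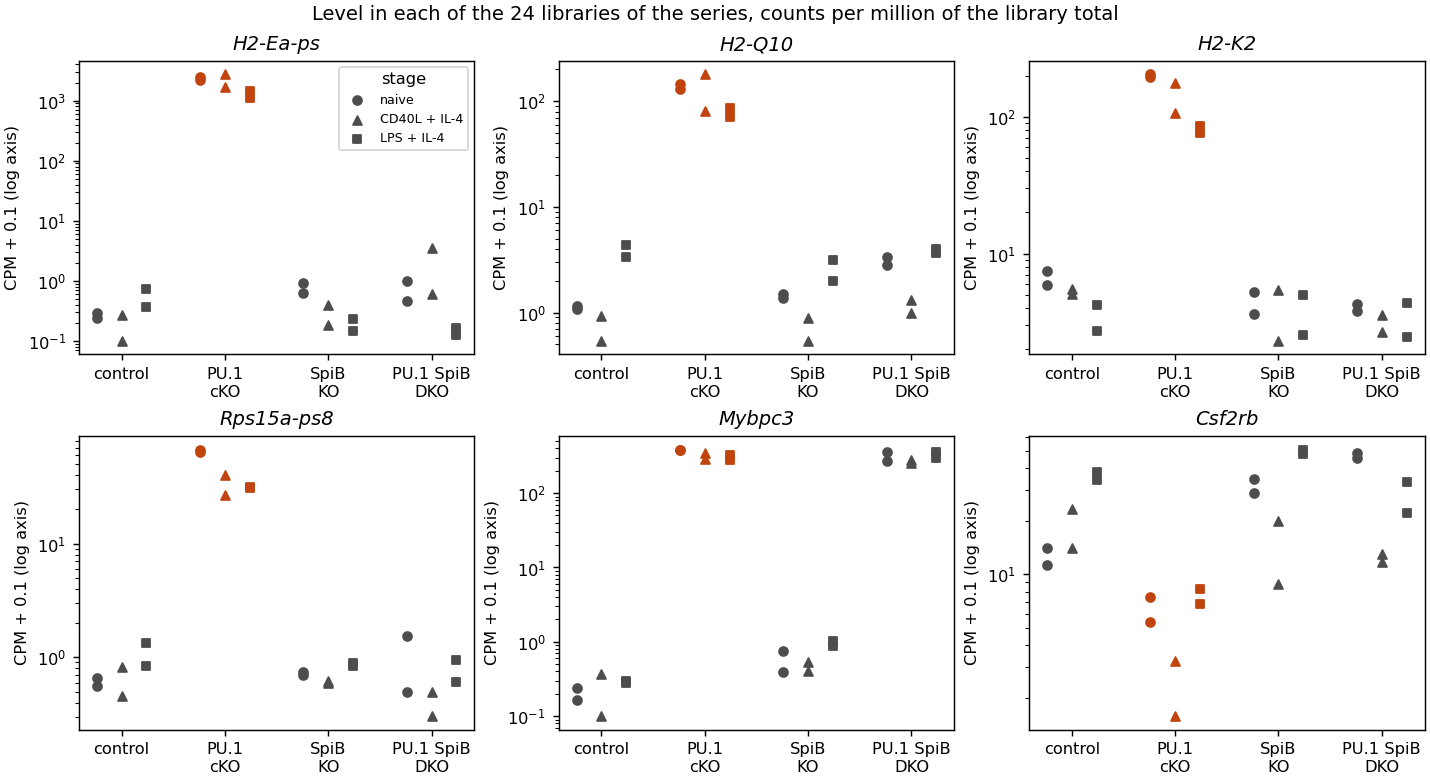
Level of 6 genes in each of the 24 libraries, in raw CPM + 0.1 on a log axis, by genotype (columns) and stage (symbols); PU.1 cKO libraries are in red. H2-Ea-ps, H2-Q10, H2-K2 and Rps15a-ps8 were high in the PU.1 cKO libraries alone, and Mybpc3 was high in both genotypes that had floxed Spi1 together with Cre. Csf2rb was lower in the PU.1 cKO libraries than in all others by a narrow gap, 8.16 raw CPM at most against 8.75 raw CPM at least.

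The targeted gene was examined next. Spi1 (Entrez ID 20375, chr2:91082374-91115759) stood at 84.8 and 108 CPM in control and at 46.9 and 35.1 CPM in PU.1 cKO. Both PU.1 cKO libraries lay below both controls, by 1.24 on the log2 scale (SE 0.20, edgeR adjusted p = 0.00331). The study removed exon 5 only, and the deposited table gives 1 count for the whole gene, so these values do not measure the deletion itself. Spib stood at 398 and 525 CPM in control and at 470 and 457 CPM in PU.1 cKO, a log2 fold change of 0.01 (SE 0.21, edgeR adjusted p = 0.992). Fcer2a, the gene of CD23, was at 1022 and 1065 CPM in control and at 286 and 297 CPM in PU.1 cKO (log2 fold change -1.84, SE 0.17, edgeR adjusted p = 0.000103).

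Among the other 14 ETS family members tested, Ets2 was higher (log2 fold change 0.74, edgeR adjusted p = 0.0586) and no other was DE, a term defined in the next paragraph. Ets2 lost the call without either control library or without the second PU.1 cKO library. Etv5 had a log2 fold change of -1.27 (edgeR adjusted p = 0.0392) and too low a mean RPKM. Erg had 0 counts in both control libraries and 86 counts in the PU.1 cKO libraries, at least 8.4-fold higher against a floor of 3 counts over the group. The genes flanking Spi1 were also examined, because a floxed allele can carry linked changes. Of 20 genes tested within 500 kb of Spi1, 3 were DE: Spi1 itself, 1110051M20Rik (log2 fold change -1.01) and Mybpc3. Mybpc3, which encodes a cardiac myosin-binding protein and starts 2355 bases beyond the end of Spi1, was at 0.263 and 0 CPM in control and at 344 and 292 CPM in PU.1 cKO. The ratio of its counts was 2067 (exact binomial 95% interval 707 to 10026, counting error only), with 3 counts in control. In PU.1 SpiB DKO it was at 301 and 241 CPM, so the 4 libraries of this culture with floxed Spi1 and Cre were those with this transcript, while the SpiB KO libraries (floxed, no Cre) were at 0.299 and 0.437 raw CPM.

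To be called differentially expressed (DE), a gene needed an adjusted p (Benjamini-Hochberg) below 0.15 by edgeR's quasi-likelihood test, more than 1.5-fold change and, averaged over the 8 libraries, a log2 RPKM (a read density per gene length and depth) above 0 in the deposited table. Of the 12721 genes tested, 1191 were DE (9.36%), 498 higher (3.91%) and 693 lower (5.45%) in PU.1 cKO. The median absolute log2 fold change was 0.955 for the higher and 0.946 for the lower genes, and the median over all genes was -0.01. Fold changes over 4 were found for 64 higher and 52 lower genes. Both PU.1 cKO libraries lay beyond both controls for 494 of the 498 higher and 691 of the 693 lower genes, which were selected on that same difference, and in all genes tested this held for 3276 upwards and 3358 downwards. Without the threshold on RPKM, 797 genes (6.27%) passed as higher and 917 (7.21%) as lower. The H2 region held 28 DE genes among 124 tested (22.6%), and 1163 DE genes lay elsewhere or had no position. Only 637 genes were DE without the second, deep PU.1 cKO library, with 1 PU.1 cKO library left.

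**Figure D2:**
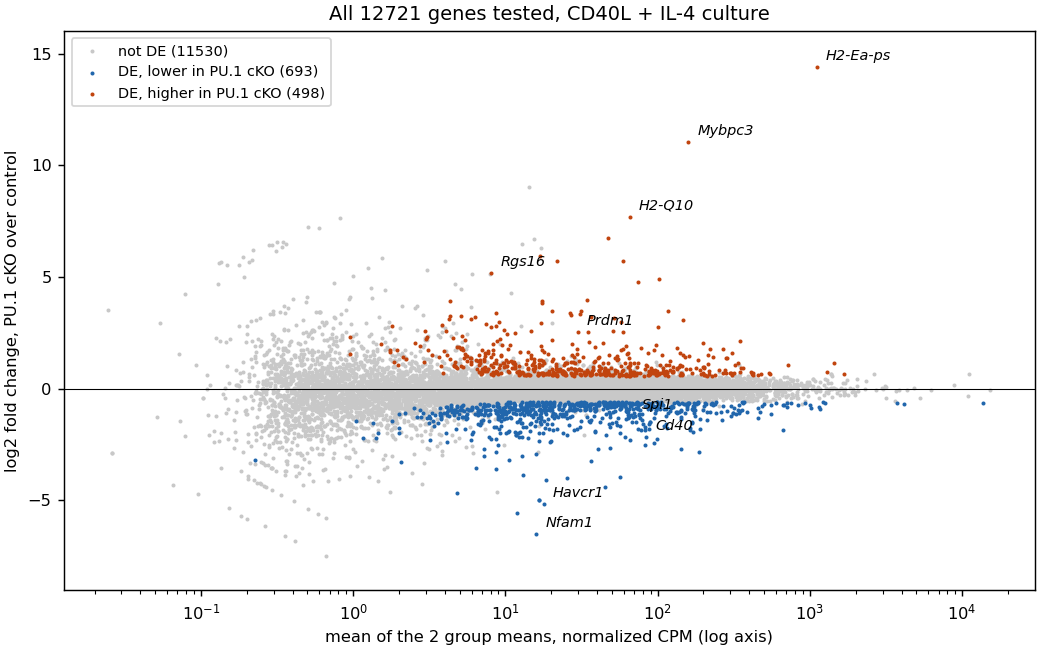
Log2 fold change of PU.1 cKO over control (vertical) against the mean of the group means in normalized CPM (horizontal, log axis) for the 12721 genes tested; blue points are the 693 DE lower genes, red points the 498 DE higher genes. H2-Ea-ps and Mybpc3 stand highest and Nfam1 lowest among the DE genes.

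Of DE genes with at least 5 CPM in the mean of either group and no overlap between the groups, the 12 with the largest falls included several surface receptors. Nfam1 (Entrez ID 74039, chr15:82996736-83033397), a receptor with an immunoreceptor activation motif, stood at 27.6 and 35.2 CPM in control and at 0.501 and 0.296 CPM in PU.1 cKO. Its log2 fold change of -6.51 (SE 0.36, edgeR adjusted p = 2.43e-06) was the lowest of the DE genes with this minimum. Havcr1 (TIM-1), a B cell costimulatory molecule, fell from 35.2 and 34.1 CPM to 1.20 and 0.871 CPM. Lilrb4, an inhibitory receptor, was at 8.60 and 9.85 CPM in control and at 0.301 and 0.378 CPM in PU.1 cKO. In each of these genes the controls were at least 8 CPM and both PU.1 cKO libraries near or below 1 CPM. For Lilrb4 the log2 fold change was -4.65 here and -0.59 in PU.1 SpiB DKO of this culture, against the same controls.

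Bcl2a1d and Bcl2a1b, near-identical copies of the survival gene A1 whose reads are uncertain between them, had log2 fold changes of -5.57 and -4.01. Cfp, the gene of the complement factor properdin, fell from 79.8 and 91.7 CPM to 4.61 and 3.73 CPM (log2 fold change -4.40, SE 0.19, edgeR adjusted p = 7.8e-07). Emr1, which encodes the macrophage antigen F4/80, fell from 27.7 and 42.1 CPM to 1.5 and 2.32 CPM. Csf1r, Lyz2 and the C1q genes were at 0 counts in every library, while Cd68 was at 12.7 and 14.1 raw CPM in control and at 2.75 and 2.84 raw CPM in PU.1 cKO. Whether cells of another type contributed to Emr1 was not tested. Of the 18 macrophage markers 10 were at 0 counts in all 4 libraries, and summed over all 18 the level was 63.3 and 80.7 raw CPM in control and 24.5 and 20.8 raw CPM in PU.1 cKO, mostly Emr1, Mpeg1 and Cd68. Grm6, Btnl1, Plbd1, Dse and Crhbp completed the list with log2 fold changes between -4.99 and -3.57.

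Among the 12 largest rises, 6 were H2 region genes (H2-Ea-ps, H2-Q10, H2-Q2, Gm8909, H2-Q1 and H2-K2), and Rps15a-ps8 and Gm20568 were also higher in all PU.1 cKO libraries of the series. The others were Mybpc3, Rgs16, Atp1b1 and Rgcc. Rgs16, a regulator of G protein signalling, rose from 0.526 and 0.314 CPM to 16.5 and 14.9 CPM (log2 fold change 5.17, SE 0.35, edgeR adjusted p = 8.71e-06). Atp1b1, a subunit of the sodium pump, rose from 5.00 and 8.07 CPM to 201 and 195 CPM (log2 fold change 4.93). Rgcc, a regulator of the cell cycle, rose from 0.526 and 0.524 CPM to 6.91 and 9.29 CPM. None of these 3 genes lies in the H2 region, and in PU.1 SpiB DKO, which shares the controls, their log2 fold changes were 6.01, 5.69 and 3.44.

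**Figure D3:**
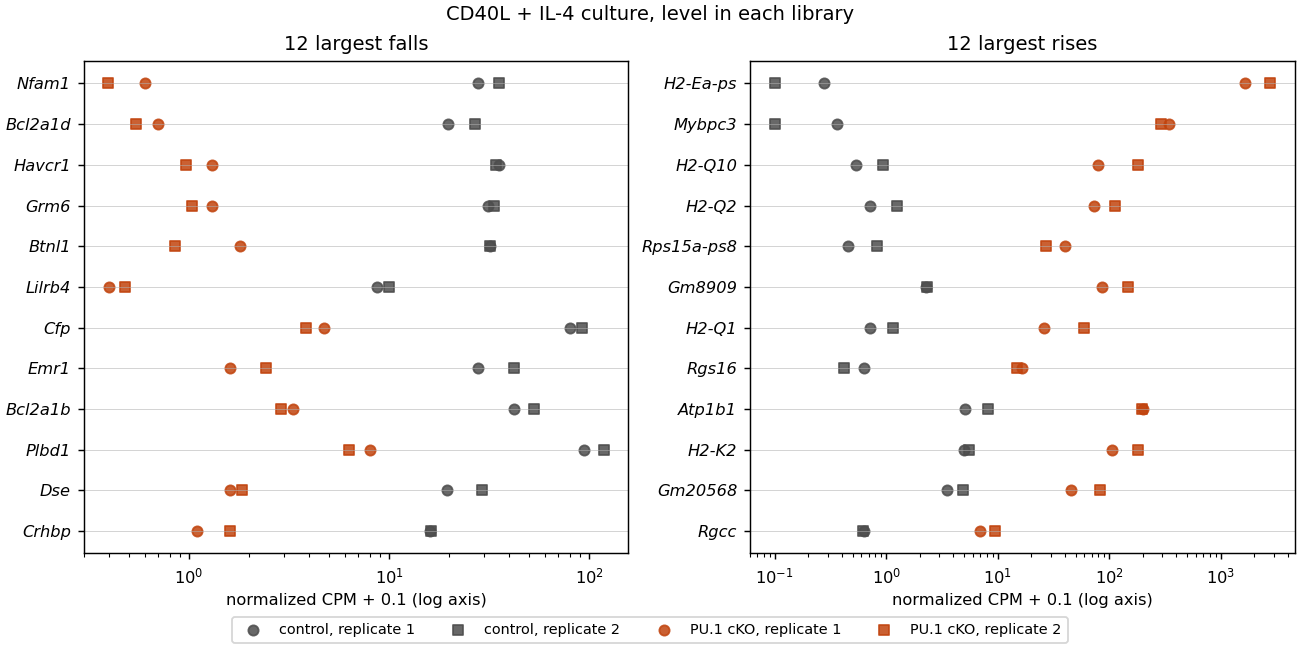
Normalized CPM + 0.1 (log axis) of the 12 largest falls and the 12 largest rises among DE genes in the 2 control libraries (grey) and the 2 PU.1 cKO libraries (red). Genes were chosen among those whose groups did not overlap, and for Nfam1 the controls stood at 27.6 and 35.2 CPM against 0.501 and 0.296 CPM.

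Signalling from the BCR came next. The BCR activates the kinases Lyn, Syk and Btk, whose adaptors reach calcium, protein kinase C and phosphoinositide 3-kinase, and it is held back by inhibitory receptors that recruit phosphatases. Of 19 genes that the study drew as this pathway, 12 were lower and 0 higher in PU.1 cKO, against 5.45% lower among all genes. Their median log2 fold change was -0.78. The study chose this list on these samples, so the count is not independent evidence of its direction. Without the second PU.1 cKO library, 6 of the 19 were lower.

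Rasgrp3, a Ras activator that follows diacylglycerol, changed most among the 12, from 286 and 221 CPM in control to 69.7 and 71.7 CPM in PU.1 cKO (log2 fold change -1.84, SE 0.18, edgeR adjusted p = 0.000159). The adaptor gene Pik3ap1 (BCAP) fell from 259 and 150 CPM to 87.7 and 73.7 CPM (log2 fold change -1.35). Prkcb, the protein kinase C of B cells, had a log2 fold change of -1.04, and Ppp3r1, the regulatory subunit of calcineurin, of -1.08. These genes encode steps between the receptor and its transcription factors.

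Malt1, a protease that links the BCR to NF-kB, had a log2 fold change of -0.98. Among the kinases, Btk fell from 172 and 168 CPM to 113 and 102 CPM (log2 fold change -0.67, edgeR adjusted p = 0.0285), and Lyn had a log2 fold change of -0.63 (edgeR adjusted p = 0.105). Syk stood at 143 and 153 CPM in control and at 165 and 116 CPM in PU.1 cKO, so its libraries overlapped between the groups (log2 fold change -0.08, SE 0.23). Dapp1 (-0.78) and Vav2 (-0.77) were also lower. Each of Lyn, Malt1 and Vav2 lost the call under 2 or 3 of the 4 fits that left out 1 library, and Vav2 was at -0.43 without the first control library.

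Inhibitory members fell as well as activating ones. Ptpn6, the phosphatase SHP-1, was at 471 and 429 CPM in control and at 207 and 200.5 CPM in PU.1 cKO (log2 fold change -1.15, SE 0.15, edgeR adjusted p = 0.000953). Fcgr2b, the inhibitory Fc receptor for IgG, fell by 1.02 on the log2 scale. Pirb, another inhibitory receptor, was at 3.95 and 6.92 CPM in control and 0.200 and 0.296 CPM in PU.1 cKO, and was not DE because its mean RPKM was below the threshold. Ikbkb (-0.44), Inpp5d (-0.35), Blnk (-0.22) and Pik3cg (0.54) did not meet the criteria.

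In a wider list of 66 further BCR components, 9 were lower (13.6%, against 5.45% of all genes) and 3 higher (4.55%, against 3.91%). The median log2 fold change was -0.18. Cd72, an inhibitory coreceptor, fell from 71.4 and 77.4 CPM to 16.5 and 18.8 CPM (log2 fold change -2.06, SE 0.22, edgeR adjusted p = 0.000254). The kinase genes Fgr and Tec had log2 fold changes of -1.60 and -1.47, and Nfkbie, an inhibitor of NF-kB, of -1.32. Jun, a component of the factor AP-1, rose from 78.3 and 90.5 CPM to 243 and 229 CPM (log2 fold change 1.48), and Rasgrp2 by 0.98 on that scale. Of the receptor itself, Cd79a and Cd79b were not DE. Cd79a stood at 1002 and 1248 CPM in control and at 1137 and 1132 CPM in PU.1 cKO. Cd79b had a log2 fold change of -0.39 (edgeR adjusted p = 0.338). It was at 1336 and 1821 raw CPM in control and at 1255 and 1159 raw CPM in PU.1 cKO. The immunoglobulin chains of the receptor are given below.

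The letters GAGGAAG printed above were sought in a 300-base window, from 250 bases before a start to 50 bases after it, and were present for 7 of the 14 genes of the study's BCR list that have such a RefSeq window. In Btk they lay after the start. Of the 9 genes among the 14 that were DE lower, 4 held the letters (44.4%, against 50% of the 14). Inpp5d and Pik3cg, which were not DE, held them too. Among Fc and inhibitory receptors 11 of 22 held them, but 1 of the 7 that were DE lower (14.3%). They were present for 121 of 536 DE lower genes (22.6%), 67 of 390 DE higher genes (17.2%), 1355 of 8682 genes tested and not DE (15.6%) and 4152 of 27025 RefSeq genes in all (15.4%). For the shorter GAGGAA, which lies within GAGGAAG, the shares were 39.4%, 30.5%, 29.5% and 31.3%. Both strands were searched, a gene counted where any of its windows held the letters, and no test was made. A match is a run of letters and not a site at which PU.1 binding was measured.

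Genes of the plasma cell programme were examined next. Of the 22 tested, 15 were higher and 0 lower, against 3.91% higher among all genes, and the median log2 fold change was 1.10. Prdm1 (Entrez ID 12142) was at 8.33 and 9.12 CPM in control and at 48.8 and 52.9 CPM in PU.1 cKO, a 5.84-fold rise (log2 fold change 2.55, SE 0.18, edgeR adjusted p = 9.41e-06). Bhlha15 (MIST1), a regulator of the secretory apparatus, rose from 5.44 and 3.56 CPM to 44.1 and 52.4 CPM (log2 fold change 3.41). Cd28, a receptor of T cells and of plasma cells, rose from 4.12 and 2.41 CPM to 44.2 and 30.6 CPM (log2 fold change 3.48). The groups did not overlap in any of these 3 genes. Of the T cell markers, Cd28 and Zap70 were higher in PU.1 cKO, Zap70 at 13.6 and 13.5 raw CPM in control against 53.0 and 61.0 raw CPM, while the CD3 genes and Cd4 stayed near 0.

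Ell2, an elongation factor used in making secreted immunoglobulin, rose from 114 and 83.2 CPM to 363 and 323 CPM (log2 fold change 1.80, SE 0.19, edgeR adjusted p = 0.000254). Fkbp11 (2.24) and Derl3 (1.93), both of the endoplasmic reticulum (ER), and Mzb1 (1.05), a chaperone of immunoglobulin, were also higher. Sdc1, the gene of the CD138 protein against which cells were sorted, was at 4.30 and 4.19 CPM in control and at 10.6 and 14.1 CPM in PU.1 cKO. Irf4, a factor that B cells need to become plasma cells, had a log2 fold change of 0.67 (SE 0.23, edgeR adjusted p = 0.102) and lost the call when any of the 4 libraries was left out. Xbp1, the regulator of the secretory response, stood at 807 and 955 CPM in control and at 1113 and 1300 CPM in PU.1 cKO and was not DE (log2 fold change 0.45, edgeR adjusted p = 0.171).

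Of 62 genes of protein handling in the ER, 14 were higher (22.6%, against 3.91% of all genes) and 0 lower. The median log2 fold change was 0.41. Sec24d, a coat protein of vesicles that leave the ER, rose from 18.1 and 15.1 CPM to 58.9 and 62.7 CPM (log2 fold change 1.87, SE 0.29, edgeR adjusted p = 0.00252). Creld2 (0.96), Lman1 (0.78) and Hyou1 (0.77), which take part in folding and transport, were the next by adjusted p together with Edem3 (0.65) and Spcs2 (0.70). With a fold over 2 required in place of 1.5, the count of higher genes was 1, and it was 8 without the first control library and 3 without the second PU.1 cKO library.

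**Figure D4:**
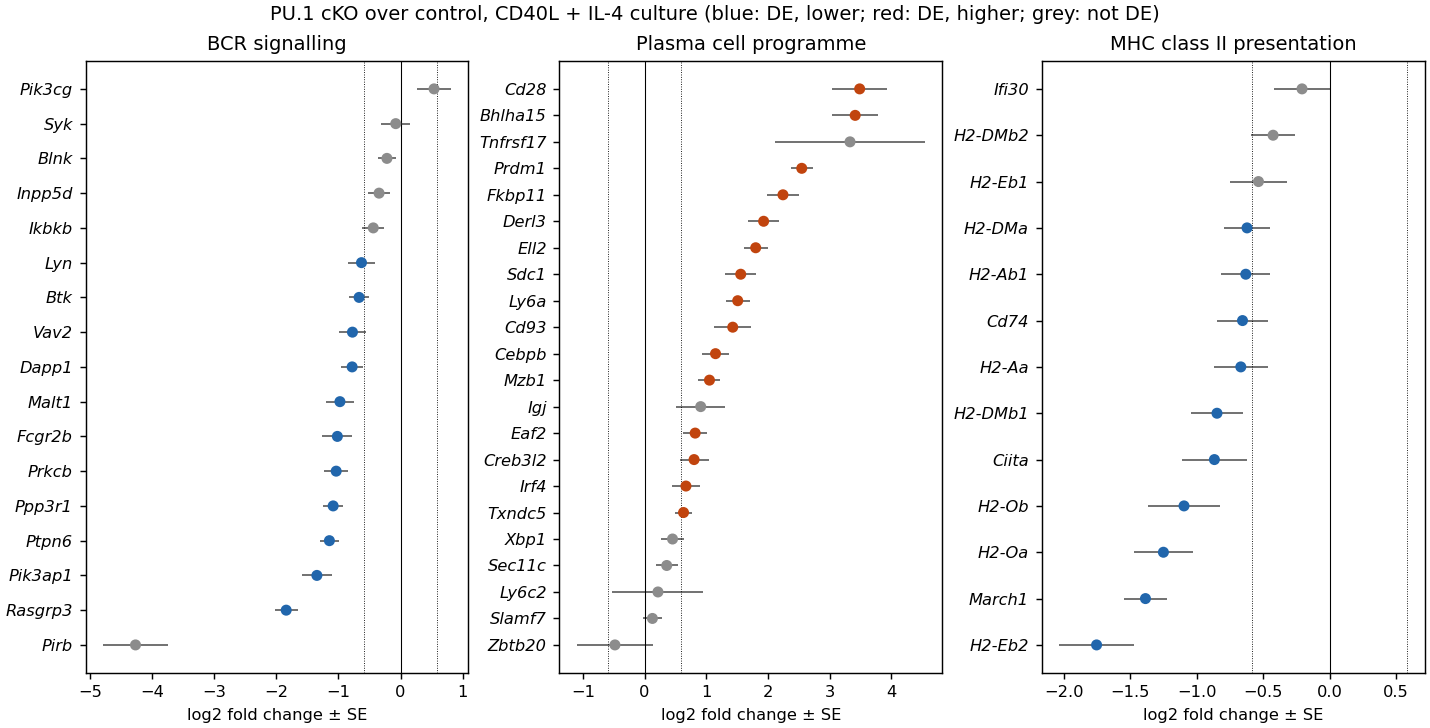
Log2 fold change (PU.1 cKO over control) ± SE of the tested members of the study's BCR signalling list that are reported here, the plasma cell programme and MHC class II presentation; dotted lines mark the fold of 1.5. No member shown of the first or last list was DE higher (red), and none of the plasma cell list was DE lower (blue).

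Immunoglobulin constant genes had no deposited RPKM and so could not be DE. By adjusted p and fold, 3 of 13 immunoglobulin genes tested were higher and 2 lower. Of all genes tested, 6.27% passed as higher and 7.21% as lower in this way. Ighm, the gene of the IgM heavy chain, was at 7914 and 9130.1 CPM in control and at 12473 and 14641 CPM in PU.1 cKO (log2 fold change 0.67, SE 0.17, edgeR adjusted p = 0.0344). Igkc had a log2 fold change of 0.68 and Ighg1, the IgG1 gene to which IL-4 directs switching, of 1.05. Counts on a constant gene do not measure switching itself. The study reported fewer IgG1+ B cells in longer PU.1 cKO cultures with the same stimulus. Ighe, the IgE gene, was at 59.8 and 46.7 CPM in control and at 8.92 and 15.7 CPM in PU.1 cKO (log2 fold change -2.07, edgeR adjusted p = 0.0289). Ighg3 had a log2 fold change of -3.79 and was among the 4 genes lower in all 6 PU.1 cKO libraries of the series. In PU.1 SpiB DKO, with the same controls, Ighe was at a log2 fold change of 0.29 and Ighg3 of 0.94.

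Of 22 genes of class switching, 2 were higher and 2 lower (9.09% each), against 3.91% and 5.45% of all genes. Batf, a factor required for switching, rose by 0.80 on the log2 scale, and Rnf168 (-0.83) and Ptbp2 (-0.97) were lower. Ptbp2 lost the call in 3 and Batf in 2 of 14 alternative fits, and Ptbp2 was at -0.45 without the second PU.1 cKO library.

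B cell transcription factors changed in both directions, 8 of 28 lower and 2 higher, with 4 lower without the first control library or the second PU.1 cKO library. The shares were 28.6% lower and 7.14% higher, against 5.45% and 3.91% of all genes. Pax5, which maintains B cell identity, fell from 214 and 225 CPM to 119 and 112 CPM (log2 fold change -0.92, SE 0.19, edgeR adjusted p = 0.0116). Mef2b, a factor of germinal centre B cells, fell from 30.4 and 33.6 CPM to 8.62 and 8.98 CPM (log2 fold change -1.86). Bhlhe40 (-1.85) and Bcl11a (-0.77) were also lower. Bcl6, the repressor of germinal centre cells, was at 31.0 and 15.4 CPM in control and at 13.5 and 8.94 CPM in PU.1 cKO (log2 fold change -1.09, edgeR adjusted p = 0.142) and lost the call with any of 3 libraries left out, standing at -0.48 without the first control library. The higher genes were Foxo1 (0.76) and Klf3 (0.98). Bach2 (-0.08), Irf8 (-0.11), Tcf3 (0.36), Tcf4 (-0.32) and Pou2af1 (0.34) were not DE.

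The receptor for the stimulus itself was among the larger falls. Cd40 (Entrez ID 21939, chr2:165055614-165071654) was at 114 and 162 CPM in control and at 29.6 and 31.6 CPM in PU.1 cKO, 4.49-fold lower (log2 fold change -2.17, SE 0.20, edgeR adjusted p = 7.17e-05). Il4ra, the receptor for IL-4, stood at 1612 and 1867 CPM in control and at 2419 and 2228 CPM in PU.1 cKO and was not DE (log2 fold change 0.42, edgeR adjusted p = 0.161). Of the 19 TNF receptor family genes, 3 were lower (Cd40, Fas and Tnfrsf18) and 3 higher (Tnfrsf8, Tnfrsf26 and Tnfrsf1b). Each count was 15.8% of the list, against 5.45% lower and 3.91% higher among all genes. Fas (-0.70) and Tnfrsf18 (-0.96) lost the call without the second control library (-0.49 and -0.57) or without either PU.1 cKO library, which left 1 gene lower. Tnfrsf8, the activation antigen CD30, rose from 7.11 and 3.77 CPM to 53.3 and 59.2 CPM (log2 fold change 3.35). Tnfrsf13c, the receptor of the survival factor BAFF, had a log2 fold change of -0.41 (edgeR adjusted p = 0.24).

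Below CD40, 8 of 26 genes of NF-kB signalling were lower and 1 higher, with 3 lower without the first control library or the second PU.1 cKO library. Relb (-0.77) and Nfkb2 (-0.75), the pair of the non-canonical pathway that CD40 engages, were lower, and Nfkb2 lost the call with any of 3 libraries left out. Rel had a log2 fold change of -1.15, which rested on the first control library: it was at 128 and 56.1 CPM in control and at 46.2 and 37.3 CPM in PU.1 cKO, and -0.42 without that library. Bcl3, a nuclear cofactor of NF-kB, rose by 0.64. The shares of the NF-kB list were 30.8% lower and 3.85% higher, against 5.45% and 3.91% of all genes. Of the Toll-like receptor pathway, 7 of 22 genes were lower, among them Tlr9 (-0.89), Tlr2 (-1.33) and Ly86 (-0.93), the partner of CD180, while the adaptors Myd88 (0.87) and Tirap (1.05) were higher. Tlr4 was not DE (0.11). The shares of the Toll-like receptor pathway were 31.8% lower and 9.09% higher. The count of 7 was 3 without the second control library and 2 without the second PU.1 cKO library.

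Antigen presentation by MHC class II was lower in 10 of 13 genes (76.9%, against 5.45% of all genes) and higher in 0. The median log2 fold change was -0.67. Ciita, the transactivator of these genes, was at 701 and 483 CPM in control and at 376 and 274 CPM in PU.1 cKO (log2 fold change -0.87, SE 0.24, edgeR adjusted p = 0.0514). Cd74, the invariant chain, was at 14447 and 19186 CPM in control and at 10290.1 and 11062 CPM in PU.1 cKO (log2 fold change -0.66). March1, a ubiquitin ligase that removes class II from the surface, had a log2 fold change of -1.39. Cd74 lost the call without the second control library (-0.44) or either PU.1 cKO library, and Ciita without the first control library (-0.56) or the second PU.1 cKO library. These 3 genes lie outside the H2 region, and the other 7 lie inside it, where the PU.1 cKO libraries stood apart. Ciita, Cd74, H2-Aa and H2-Ab1, like Nfkb2 above, were chosen after their values were seen.

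Of the 7, H2-Eb2 was lowest (log2 fold change -1.75), followed by H2-Oa (-1.25) and H2-Ob (-1.10), which modulate peptide loading. The chains H2-Aa (-0.67) and H2-Ab1 (-0.63) had edgeR adjusted p of 0.0679 and 0.0594, and both lost the call with any of 3 libraries left out. The count of lower class II genes was 6 without the first and 3 without the second PU.1 cKO library, and 5 without the second control library. In PU.1 SpiB DKO, where H2-Ea-ps was at 0.539 and 3.33 CPM, H2-Aa was at a log2 fold change of -0.65, H2-Ab1 at -0.62 and H2-Eb2 at -0.95 against the same controls. There H2-Oa was at -0.88, H2-Ob at -0.95 and H2-DMa at -0.59. H2-DMb1 was at -0.04 in PU.1 SpiB DKO, against -0.85 in PU.1 cKO.

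Lysosomal genes followed, with 13 of 52 lower (25%) and 2 higher (3.85%), against 5.45% and 3.91% of all genes. Their median log2 fold change was -0.40. Lgmn, a protease that trims antigens, fell from 229 and 266 CPM to 107 and 104 CPM (log2 fold change -1.23, SE 0.19, edgeR adjusted p = 0.00215). Cd68 (-2.25) and Asah1 (-0.96) were also lower, and Asah1 was lower in all 6 PU.1 cKO libraries of the series. Neu1 (0.92), a sialidase gene in the H2 region, and Mcoln2 (1.94), a lysosomal channel, were higher.

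Among Fc and inhibitory receptors, 8 of 24 were lower (5 without the second control library) and 2 higher, with a median log2 fold change of -0.87. The shares were 33.3% lower and 8.33% higher, against 5.45% and 3.91% of all genes. Faim3, the Fc receptor for IgM, fell from 271 and 380 CPM to 49.4 and 42.7 CPM (log2 fold change -2.83, SE 0.25, edgeR adjusted p = 6.11e-05). Fcrl5 (-2.52) and Fcrla (-2.16), Fc receptor-like genes of B cells, fell as well, and Lax1, an adaptor that restrains lymphocyte receptors, rose by 1.25 on the log2 scale.

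Costimulatory molecules were lower in 8 of 20 genes (40%, against 5.45% of all genes). Among them were Slamf1 (-1.96), Icosl (-1.52), the ligand of ICOS on T cells, and Cd83 (-0.85). Cd24a, a glycoprotein of B cell maturation, was the 1 gene that rose, from 123 and 135 CPM to 514 and 614 CPM (log2 fold change 2.13, SE 0.25, edgeR adjusted p = 0.000419). Homing receptors were lower in 6 of 32 (18.8%), led by S1pr3 (-2.63), a sphingosine phosphate receptor, and Ccr6 (-1.81), the receptor of CCL20. Of 20 chemokine and cytokine genes 8 were lower (40%), including Ebi3 (-2.08), Lta (-1.69) and Tnf (-2.38), and Csf1 rose by 1.99 on the log2 scale. Lta and Tnf lie in the H2 region, and in PU.1 SpiB DKO, with the same controls, their log2 fold changes were -0.34 and -1.03. Without the second PU.1 cKO library the lower genes numbered 4 costimulatory, 3 homing and 4 chemokine and cytokine genes, and without the second control library 4 costimulatory and 4 chemokine and cytokine genes.

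Cytokine receptors changed in both directions, 5 of 33 lower and 5 higher, with 3 lower without the second control or the second PU.1 cKO library. Each count of 5 was 15.2% of the list, against 5.45% lower and 3.91% higher among all genes. Il9r fell from 101 and 81.5 CPM to 17.5 and 27.4 CPM (log2 fold change -1.99, edgeR adjusted p = 0.00848). Csf2rb, the shared chain of the receptors for IL-3, IL-5 and GM-CSF, had a log2 fold change of -3.19 and was lower in all 6 PU.1 cKO libraries of the series. Il1r2, the decoy receptor for IL-1, rose from 5.18 and 2.62 CPM to 32.8 and 27.7 CPM (log2 fold change 2.93), and Il2rb by 2.12.

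Genes of survival changed in both directions too, 5 of 26 lower (19.2%) and 4 higher (15.4%), against 5.45% and 3.91% of all genes. The lower genes include Bcl2a1d and Bcl2a1b, the near-identical copies above, so they may not be separate signals. Bcl2 fell from 73.5 and 62.9 CPM to 32.9 and 24.1 CPM (log2 fold change -1.27, SE 0.19, edgeR adjusted p = 0.00213), and Casp6 by 1.79 on the log2 scale. Bcl2l11, the gene of the death-promoting protein BIM and named here after its values were seen, rose from 76.4 and 75.6 CPM to 245 and 186 CPM (log2 fold change 1.5). Pim2, a survival kinase, rose by 1.97. Myc rose from 99.0 and 84.8 CPM to 163 and 191 CPM (log2 fold change 0.95, edgeR adjusted p = 0.0212).

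Genes of cell division and metabolism were counted as well. Of 30 DNA replication genes 1 was lower, of 25 mitosis genes 1 was higher (Aurka, 0.69), of 30 ribosome biogenesis genes 2 were higher and of 24 genes of glycolysis 2 were higher and 1 lower. Among 28 genes of the G1 phase 4 were higher, Myc and Mxd1 (1.77) among them, and 2 lower, of which E2f1 had a log2 fold change of -0.74. Interferon-stimulated genes numbered 2 higher and 3 lower of 25. Against the background of 3.91% higher and 5.45% lower, the shares higher were 14.3% of the G1 genes, 8.33% of glycolysis, 6.67% of ribosome biogenesis, 4% of mitosis and 8% of the interferon-stimulated genes, of which 12% were lower. Each rests on at most 4 genes.

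Whether these changes belonged to this culture was tested as the difference of the PU.1 cKO effect between stages, in 1 fit of all 24 libraries over 13684 genes. The libraries of this culture come from 1 deposited count table and those of the other 2 stages from another, so each effect was a difference within a table, while levels set side by side across stages cross the tables. The effect after CD40L + IL-4 differed from that in naive cells for 1229 genes (8.98%, adjusted p under 0.15), 412 of them DE here. It differed from that after LPS + IL-4 for 423 genes (3.09%), 232 of them DE here. With 1 library left out the counts ran from 701 to 1600 and from 104 to 382, the lowest without the first PU.1 cKO library of the other stage. The 498 genes DE and higher here, chosen on this culture, had a median log2 fold change of 0.98 in it, 0.27 in naive cells and 0.48 after LPS + IL-4. For the 693 lower genes the medians were -0.92, -0.46 and -0.39. The smaller medians elsewhere follow in part from the choice of genes, and no test was made of them.

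Prdm1 was at 0.926 and 1.55 raw CPM in naive control cells and at 0.880 and 0.504 raw CPM in naive PU.1 cKO cells. After LPS + IL-4 it was at 22.9 and 18.3 raw CPM in control and at 44.5 and 46.1 raw CPM in PU.1 cKO. Its effect after CD40L + IL-4 was larger than that after LPS + IL-4 by 1.42 (SE 0.25, edgeR adjusted p = 0.00569) on the log2 scale, and than that in naive cells by 3.42 (SE 0.40, edgeR adjusted p = 8.89e-05). Control cells after CD40L + IL-4 were at 8.38 and 9.06 raw CPM, below those after LPS + IL-4. The PU.1 cKO cells of both cultures were at 44.5 to 52.2 raw CPM. These levels come from 2 count tables, and their difference between cultures was not tested.

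Cd40 was at 140 and 145 raw CPM in naive control cells and at 74.9 and 56.0 raw CPM in naive PU.1 cKO cells. Its effect was more negative here than in naive cells by 0.99 (edgeR adjusted p = 0.0205) and than after LPS + IL-4 by 0.93 (edgeR adjusted p = 0.0636) on the log2 scale. Tnfrsf8 (CD30) was at 52.1 and 72.5 raw CPM after LPS + IL-4 in control and at 91.8 and 94.9 raw CPM in PU.1 cKO. Control cells here were at 7.15 and 3.75 raw CPM, a level from the other count table that was not tested against the first.

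The effect on Havcr1, Cfp and Dse was more negative after CD40L + IL-4 than in naive cells, by 4.15, 3.76 and 4.56 on the log2 scale. In naive control cells Havcr1 was at 10.5 and 5.27 raw CPM and in naive PU.1 cKO cells at 3.21 and 4.98 raw CPM. Dse was not lower in naive PU.1 cKO cells, at 3.37 and 1.12 raw CPM in control and at 3.90 and 3.85 raw CPM in PU.1 cKO (log2 fold change 0.72). Serpinb6b went the other way after LPS + IL-4, where it was at 26.3 and 24.7 raw CPM in control and at 58.6 and 79.5 raw CPM in PU.1 cKO, but at 102 and 116 against 50.8 and 49.1 raw CPM here (difference of effects -2.55, SE 0.32, edgeR adjusted p = 0.000764).

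**Figure D5:**
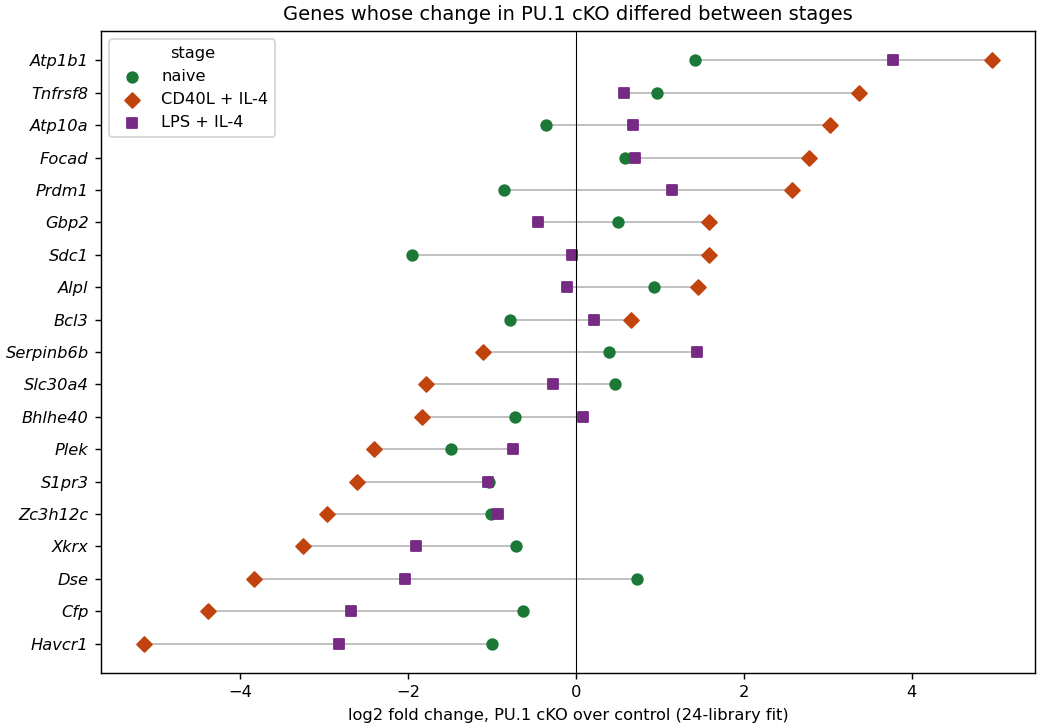
Log2 fold change of PU.1 cKO over control at each stage (24-library fit) for DE genes with the smallest p in the tests of difference between stages. Diamonds mark CD40L + IL-4, circles naive cells and squares LPS + IL-4; Prdm1 stood at 2.57, -0.85 and 1.15 and Cfp at -4.39, -0.63 and -2.68, in that order.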

How the data were processed

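Counts of reads per gene were deposited by the authors in 2 tables, 1 with the 8 libraries of this culture and 1 with the 16 naive and LPS + IL-4 libraries (Subread and featureCounts, GRCm38/mm10, versions not given in the sources used here). Files per library deposited by the authors hold log2 RPKM, made with limma, which served here only as the expression threshold. Counts were fitted with edgeR 4.0.16 (R 4.3.3; TMM, quasi-likelihood) over the 8 libraries of the culture, and over all 24 for the stage tests. DESeq2 1.42.0 and limma 3.58.1 were alternatives. Of the 12721 genes tested 232 had no RPKM and could not be DE. With 2 libraries a group, an exact permutation test of 1 gene cannot go below p = 0.333. The fit was tested on simulated data.

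Members and gene lists were chosen with earlier results of these data known. Genes named were the 3 control genes, the 12 largest rises and falls, all tested members of 5 lists, up to 6 of each other list by call and adjusted p, genes the study names, the top stage differences and DE genes near Spi1. Exceptions are stated, and a few genes that the lists hold and count are not reported here. The text calls groups by the genotype in the labels. Promoters are from RefSeq. Intervals cover counting error only.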

Additional observations from a re-analysis of the deposited data

Results flagged for a closer look

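The effect of PU.1 loss differed between stages, by the test of the difference itself, for 1229 genes against naive cells and 423 genes against LPS + IL-4. The values that follow are differences of log2 fold changes from edgeR. Against naive cells the effect after CD40L + IL-4 was higher for Sdc1 (3.55), Atp1b1 (3.54), Prdm1 (3.42), Atp10a (3.38) and Bcl3 (1.44). It was lower for Dse (-4.56), Havcr1 (-4.15), Cfp (-3.76), Xkrx (-2.53) and Slc30a4 (-2.25). Sdc1 itself was at 16.9 and 11.0 raw CPM in naive control cells and at 3.46 and 3.97 raw CPM in naive PU.1 cKO cells, the opposite direction to that after CD40L + IL-4.

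Against LPS + IL-4 the effect was higher for Tnfrsf8 (2.80), Atp10a (2.34), Focad (2.07), Gbp2 (2.03) and Alpl (1.55). Lower effects were found for Serpinb6b (-2.55), Zc3h12c (-2.05), Bhlhe40 (-1.92), Plek (-1.66) and S1pr3 (-1.56). The part of culture, depth or genetic background in these differences was not tested.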

How the results depend on the processing

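The count of 1191 DE genes stayed between 1126 and 1380 under other scalings, filters, tests and sets of libraries. It was 789 at an adjusted p under 0.05, 542 at a fold over 2, 1714 without the RPKM threshold, and 637 (without PU.1 cKO replicate 2) to 998 (without control replicate 1) with 1 library left out. Then a lone library is assumed to vary like the other groups, and fewer samples enter. The counts of stage differences moved further. Against naive cells the count was 630 with the 8 libraries compared, 530 at an adjusted p under 0.05 and 701 (without PU.1 cKO naive replicate 1) to 1600 (without control CD40L + IL-4 replicate 1). Against LPS + IL-4 it was 896 with no filter on low counts, 121 at an adjusted p under 0.05 and 104 (without PU.1 cKO LPS + IL-4 replicate 1) to 382 (without PU.1 cKO CD40L + IL-4 replicate 1). The cause was not tested.

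The labels number the replicates without saying what a number shares. Same-numbered libraries of this culture correlated in their deviations between -0.0702 and 0.266, those of naive cells between 0.0918 and 0.25, and those after LPS + IL-4 between 0.386 and 0.514, so a pairing was not shown for this culture and may hold after LPS + IL-4. With a replicate block 1349 genes were DE, 1178 of them shared with the fit without it, and the stage counts were 2457 and 1300. The block put Spib at -0.001159.

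In all, 182 genes were followed through the alternatives, some of them not named in this text. Of the 155 past the adjusted p and fold, 115 were past under all 14 alternatives and 0 reversed. Of 27 not past, 9 reversed with 1 library left out, where log2 fold changes ran from -0.1712 to 0.2179 for Spib, -0.3261 to 0.1745 for Syk, -0.1275 to 0.1786 for Cd79a, -0.2777 to 0.1627 for Bach2, -0.1907 to 0.1471 for Fli1, -0.1359 to 0.3039 for Elf1, -0.004719 to 0.2071 for Gabpa, -0.2368 to 0.8777 for Elk4 and -0.03136 to 0.2707 for Tlr4. Genes under 0.5 CPM were not tested at this depth.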
